A study of Homo sapiens with 4 samples.

Results

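A set of 10 complement, acute-phase and NF-kB-linked genes was examined in MiaPaca-2 cells after knockdown of PRMT1. It held the complement components C3, C1R and C1S, the acute-phase protease inhibitor SERPINA3, the S100 protein S100A9 and the mitochondrial superoxide dismutase SOD2. The others were the NF-kB scaffold CARD10, the cytokine receptor IL4R and the cytokine genes EBI3 and LIF. All 10 genes were picked by symbol from the 858 genes that the authors' deposited table holds. Because they were chosen from their listing in that table, where every gene has an unadjusted p under 0.05, their values are given as a description and no test was run on them. MiaPaca-2 is an established human pancreatic cancer cell line, and the 4 samples are 2 with shPRMT1, a short hairpin RNA that targets PRMT1, and 2 with shNTC, a control hairpin without a target. All 4 were grown in the same medium with fetal bovine and horse serum, and total RNA was sequenced. The labels name 1 hairpin per group, with no rescue, and do not say whether replicates were separate cultures or whether a line is a clone, so the authors' p-values may reflect technical spread alone. The extraction text of the labels describes an H3K27ac immunoprecipitation beside an RNA library kit, and the samples were read as RNA sequencing from their molecule and library source.

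Complement is a cascade of plasma proteases that tags and lyses targets. C1R and C1S are the paired proteases of the first component, and all activation routes meet at C3. The liver is the main source of complement and acute-phase proteins, yet epithelial and tumour cells also make them when NF-kB, STAT3 or C/EBP factors are active. NF-kB is held in the cytoplasm by inhibitor proteins until receptor signals, relayed in some pathways by a CARD scaffold with BCL10 and MALT1, activate the IKK kinases. PRMT1 places asymmetric dimethylarginine on histone H4 and on many other proteins.

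Of the 10 genes, 8 were listed higher in shPRMT1 and 2 lower in the authors' deposited table. The background for such listings was 11.2% of the 7640 genes tested, a number implied by the adjusted p-values, with 4.67% listed higher and 6.56% lower. As the genes were chosen from this contrast, nothing is read from their count or from the comparisons of size that follow. Their median log2 fold change was 1.10 in the authors' deposited table, against −0.12 over all 858 listed genes and 0.28 over the 357 listed higher. A log2 fold change of 1 or more in either direction was listed for 6 of the 10 in the authors' deposited table; 58 of the 858 listed genes (6.76%) reached that size, or 0.759% of the genes tested. None of the 10 had an adjusted p under 0.05, the range being 0.308 to 0.442 in the authors' deposited table, where 1 gene of all those tested (0.0131%) did. Levels in each sample were not analysed here, so whether the groups overlap is unknown and no replicate error can be set beside a fold change. Sequencing depth and expression level are likewise unknown.

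Direction rests on PRMT1 itself. The numerator of the deposited ratio is not named. It was taken to be shPRMT1, since PRMT1 (ENSG00000126457.16) then stands at 0.356 times its shNTC level in the authors' deposited table (p = 0.0156, adjusted p 0.411). Were it shNTC, every direction given here, the counts of higher and lower genes and medians above included, would turn around, and ranks from the highest would become ranks from the lowest.

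**Figure D1:**
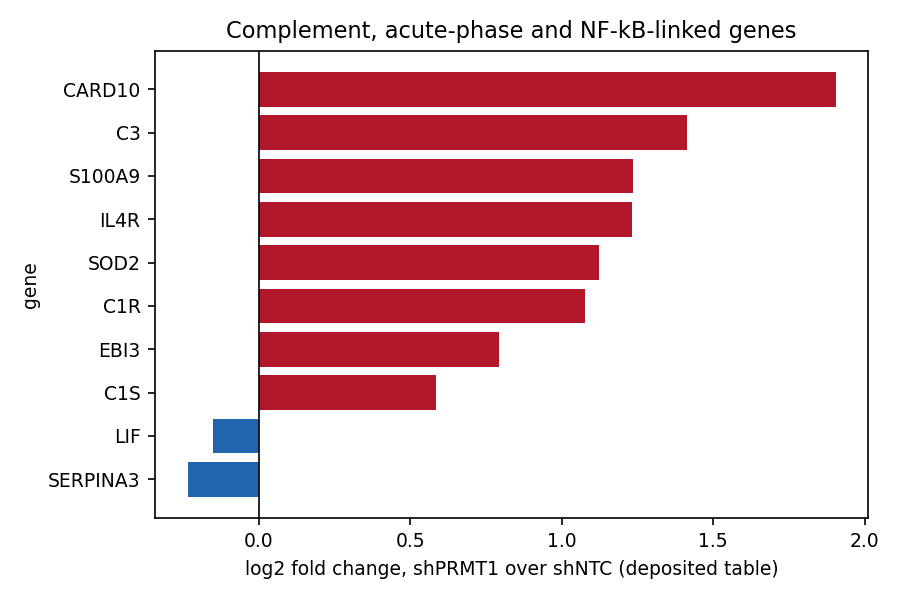
Log2 fold change (x axis, shPRMT1 over shNTC, from the authors' deposited table) of each of the 10 genes (y axis), red where higher and blue where lower; no error bars are drawn because levels in each sample were not analysed here. The bars run from −0.24 for SERPINA3 to 1.91 for CARD10, and 8 of the 10 lie on the higher side.

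Windows of promoter sequence were available in the RefSeq-based table (GRCh38.p14) for 7 of the 10 genes: S100A9, SERPINA3, IL4R, EBI3 and CARD10 with 1 annotated start each, C1R with 2 and SOD2 with 4. C3, C1S and LIF had no entry. Each window spans 250 bases before to 50 bases after a start. They were searched on both strands for the NF-kB consensus, a STAT motif (TTCNNNGAA), a STAT6-type motif (the same letters with 1 more N in the spacer), an AP-1 motif (TGANTCA), the GC box (GGGCGG) and the TATA box (TATAAA). A match describes letters and is not a shown binding site. Each of the 4 sequences below comes from the only window with any match to a given motif, and shows its 250 bases before the start. Capitals mark the NF-kB consensus in IL4R (chr16:27313724-27313973, plus strand), the STAT motif in C1R at its second listed start (chr12:7091894-7092143, minus strand), the AP-1 motif in EBI3 (chr19:4229273-4229522, plus strand) and the TATA box in S100A9 (chr1:153357604-153357853, plus strand). All are written 5′ to 3′ on the gene's strand.
IL4R: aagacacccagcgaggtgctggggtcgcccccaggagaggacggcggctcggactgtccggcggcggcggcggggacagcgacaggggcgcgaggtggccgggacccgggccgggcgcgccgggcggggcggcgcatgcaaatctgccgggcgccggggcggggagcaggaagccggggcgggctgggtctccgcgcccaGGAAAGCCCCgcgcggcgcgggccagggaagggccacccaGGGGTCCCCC
C1R: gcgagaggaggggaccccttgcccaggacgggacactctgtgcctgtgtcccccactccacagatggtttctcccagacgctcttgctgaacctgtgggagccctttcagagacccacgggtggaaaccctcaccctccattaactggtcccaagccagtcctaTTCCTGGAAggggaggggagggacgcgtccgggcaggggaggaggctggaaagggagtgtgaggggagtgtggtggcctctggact
EBI3: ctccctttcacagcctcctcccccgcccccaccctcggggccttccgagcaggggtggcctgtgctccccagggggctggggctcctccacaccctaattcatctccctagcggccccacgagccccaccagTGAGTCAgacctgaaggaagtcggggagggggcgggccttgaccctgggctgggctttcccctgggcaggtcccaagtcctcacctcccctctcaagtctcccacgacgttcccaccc
S100A9: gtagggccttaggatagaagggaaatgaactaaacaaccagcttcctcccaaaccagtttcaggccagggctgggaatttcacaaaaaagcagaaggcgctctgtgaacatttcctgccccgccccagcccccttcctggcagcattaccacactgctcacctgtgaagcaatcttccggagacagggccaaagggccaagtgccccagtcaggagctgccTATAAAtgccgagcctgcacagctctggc

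IL4R carried a pair of NF-kB consensus matches, at bases −50 to −41 and −10 to −1 counted from the start, and was the 1 window of 11 with any. The same consensus was found in 5.91% of all 35116 promoter windows and in 6.48% of the 910 windows of genes in the deposited table. The C1R match to the STAT motif lies at −86 to −78, and 7.66% of all windows hold one. The AP-1 letters of EBI3 lie at −118 to −112, against 7.71% of all windows, and the TATA box of S100A9 lies at −29 to −24, against 11.5%. No STAT6-type match was present in the 11 windows, while 6.44% of all windows hold one. Matches of different motifs did not overlap in these windows, while neighbouring GC boxes can share a base, as at −241 in CARD10.

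GC boxes were present in 8 of the 11 windows, belonging to SOD2 (each of its 4 starts), CARD10, IL4R, EBI3 and S100A9. They were found in 45.0% of all windows and in 69.1% of the windows of listed genes. CARD10 had 9 such matches, IL4R 4 and S100A9 1. SERPINA3 had none of the 6 motifs and the lowest GC content of the 11 windows, 42.3%, while CARD10 had the highest, 83.3%. The median GC content was 68.3% over the 11 windows, 65.7% over windows of listed genes and 58.7% over all windows. No motif other than the GC box was shared by windows of different genes in the set.

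**Figure D2:**
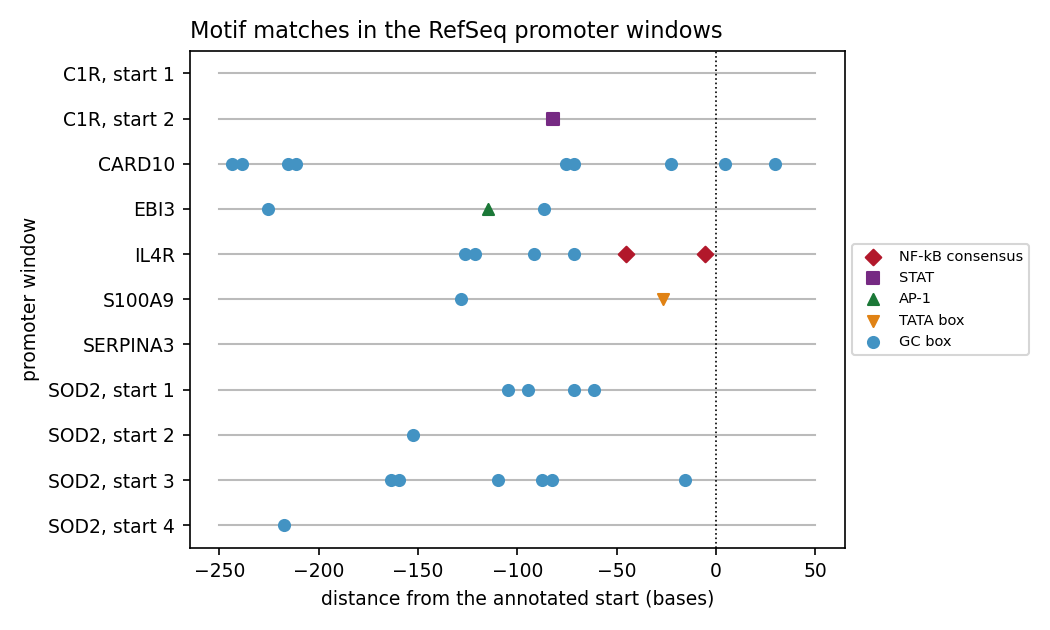
Centre of each motif match (x axis, bases from the annotated start, dotted line at the start) in the 11 RefSeq promoter windows (y axis; SOD2 has 4 starts and C1R 2), with marker shape and colour giving the motif. GC boxes (circles) lie in 8 of the 11 windows, and the NF-kB consensus (diamonds) lies in IL4R alone.

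The 3 complement components stood on the higher side together. C3 (ENSG00000125730.12, chromosome 19), the protein on which all activation routes converge, had 2.66 times its shNTC level in the authors' deposited table (log2 ratio 1.41, p = 0.0257). C1R (ENSG00000159403.11), the protease that is activated first in the C1 complex, had 2.11 times its shNTC level in the authors' deposited table (log2 ratio 1.08, p = 0.00354, adjusted p = 0.364). C1S (ENSG00000182326.10), its substrate and the protease that cleaves C4 and C2, was listed at 1.50 times in the authors' deposited table (log2 ratio 0.58, p = 0.00755, adjusted p = 0.379). C1R and C1S are adjacent protein-coding genes on chromosome 12. Their log2 values in the authors' deposited table were 0.49 apart, a gap that was not tested. C3 ranked 13 from the highest of the 858 listed log2 values of the authors' deposited table, C1R 34 and C1S 78. By p the order of the 3 was C1R, C1S, C3. In GENCODE 29, C1R overlaps C1RL on the same strand and C1S overlaps EMG1 on the same and LPCAT3 on the opposite strand, and none of these neighbours was in the authors' deposited table.

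Other genes of the cascade were taken from a fixed list. Of 28 other genes of complement activation, 1 was listed, C1QBP, a mitochondrial protein also described as a receptor of C1q. It stood at a log2 fold change of −0.09 in the authors' deposited table (p = 0.0198). None of the 19 complement regulators and receptors, such as CD46, CD55 and CD59, was in the authors' deposited table. For a gene that is not listed, a p of at least 0.05 cannot be told apart from no test at all. An entry under an older symbol would be missed as well, here and in the lists below, which were searched by current symbol. GPR108, the neighbour of C3 whose GENCODE 29 annotation overlaps it on the same strand, was listed at −0.34 in the authors' deposited table (p = 0.0425), on the other side from C3.

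The acute-phase list held 1 of the 10 genes, SERPINA3. SERPINA3 (ENSG00000196136.12, chromosome 14), the inhibitor of chymotrypsin-like proteases that rises in plasma during inflammation, was listed at 0.849 times its shNTC level in the authors' deposited table (log2 ratio −0.24, p = 0.0161, adjusted p = 0.411). An unnamed protein-coding entry of GENCODE 29 overlaps SERPINA3 on the same strand. None of the 27 other acute-phase genes, among them SAA1, SERPINA1, HP and LCN2, was in the authors' deposited table. SERPINA3 and C3, both acute-phase products of the liver, stood on opposite sides of the authors' deposited table.

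S100A9 (ENSG00000163220.10, chromosome 1), a calcium-binding protein that forms calprotectin with S100A8 and is best known from myeloid cells, stood at 2.35 times its shNTC level in the authors' deposited table (log2 ratio 1.23, p = 0.0209). None of the 17 other genes of its list, which holds S100 genes and their receptor AGER, was in the authors' deposited table, the partner S100A8 and the adjacent S100A12 included. No leukocyte marker (0 of 10, PTPRC, CD14 and LYZ included) and no hepatocyte marker (0 of 8) was in the authors' deposited table. Levels are unknown, so the tissue label could not be checked against absolute expression. Of the other marker lists the authors' deposited table held the fibroblast gene COL1A2 (log2 fold change −0.51, p = 0.0429; 1 of 10) and the endothelial gene CDH5 (0.81, p = 0.0254; 1 of 8). It also held 2 of 10 ductal epithelial genes, CLDN4 at 0.53 (p = 0.0142) and KRT19 at −0.24 (p = 0.0207) in the authors' deposited table. Over all marker lists, 4 of 46 genes (8.70%) were listed, beside 11.2% of the genes tested. How many of the 46 were tested is unknown, and nothing is read from these counts. All 4 samples are of the MiaPaca-2 line, so the markers are given as genes and not as a measure of other cell types.

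SOD2 (ENSG00000112096.12, chromosome 6), the manganese superoxide dismutase of the mitochondrial matrix and a well-known NF-kB target, had the smallest p of the 10 genes. It was listed at 2.18 times its shNTC level in the authors' deposited table (log2 ratio 1.12, p = 0.00155, adjusted p = 0.308) and ranked 36 of 858 by p. In GENCODE 29 the SOD2 gene overlaps WTAP on the opposite strand and a further annotated SOD2 gene on the same strand. Whether counting used strand, or gene models with these overlaps, is not given in the sources used here. Whether reads of these loci were separated is therefore unknown. WTAP itself was not in the authors' deposited table. Of 14 other superoxide and peroxide enzymes, PRDX2, a cytosolic peroxiredoxin, was the 1 listed, at −0.20 in the authors' deposited table (p = 0.00451).

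CARD10 (ENSG00000100065.10, chromosome 22), also called CARMA3, the scaffold that links receptors to BCL10 and MALT1 in non-haematopoietic cells, had the largest ratio of the 10 genes. It reached 3.75 times its shNTC level in the authors' deposited table (log2 ratio 1.91, p = 0.0212, adjusted p = 0.432), rank 3 from the highest of all listed genes. None of the 9 other genes of the CARD scaffold and CBM complex list was in the authors' deposited table, BCL10 and MALT1 included. Among all 62 other genes of the NF-kB pathway list, the authors' deposited table held TBK1, an IKK-related kinase, at −0.25 (p = 0.00374). The 5 NF-kB subunits, the IKK genes and all 10 inhibitors on the list, NFKBIA and TNFAIP3 among them, were not in the authors' deposited table. Neither was any of the 33 genes of the NF-kB target list under its current symbol, such as IL6, CXCL8, CXCL1, ICAM1 and CCL20. A gene entered under an older symbol, as CXCL8 may be, would have been missed. That list holds none of the 10 genes, so any of the 10 that is an NF-kB target is outside the count of 33. SOD2, called an NF-kB target above, was counted among the superoxide and peroxide enzymes. Inhibitor genes such as NFKBIA are themselves NF-kB targets.

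IL4R (ENSG00000077238.9, chromosome 16), the receptor chain shared by IL-4 and IL-13 signalling, stood at 2.35 times its shNTC level in the authors' deposited table (log2 ratio 1.23, p = 0.00438, adjusted p = 0.364). None of 13 other genes of that pathway was in the authors' deposited table, including its partner chain IL13RA1, the transcription factor STAT6 and the target CISH. The antisense gene that overlaps IL4R in GENCODE 29 was not listed either. IL4R is also the gene whose promoter window, printed above, holds the pair of NF-kB consensus matches.

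The 2 cytokine genes went opposite ways. EBI3 (ENSG00000105246.5, chromosome 19), the shared subunit of the cytokines IL-27 and IL-35, was listed at 1.73 times its shNTC level in the authors' deposited table (log2 ratio 0.79, p = 0.0491, adjusted p = 0.442). LIF (ENSG00000128342.4, chromosome 22), a ligand of the gp130 receptor with a known part in pancreatic tumours, was listed at 0.900 times its shNTC level in the authors' deposited table (log2 ratio −0.15, p = 0.0201, adjusted p = 0.431). LIF is overlapped by antisense genes in GENCODE 29, which the table did not list. None of the 41 other genes of the IL-6 family and STAT3 list was in the authors' deposited table, neither the receptors IL6ST and LIFR nor STAT3 and its target SOCS3. EBI3 is the member nearest the limit of the table. DIP2A had the next larger p in the authors' deposited table, 0.0492, and genes beyond 0.05 are not listed.

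**Figure D3:**
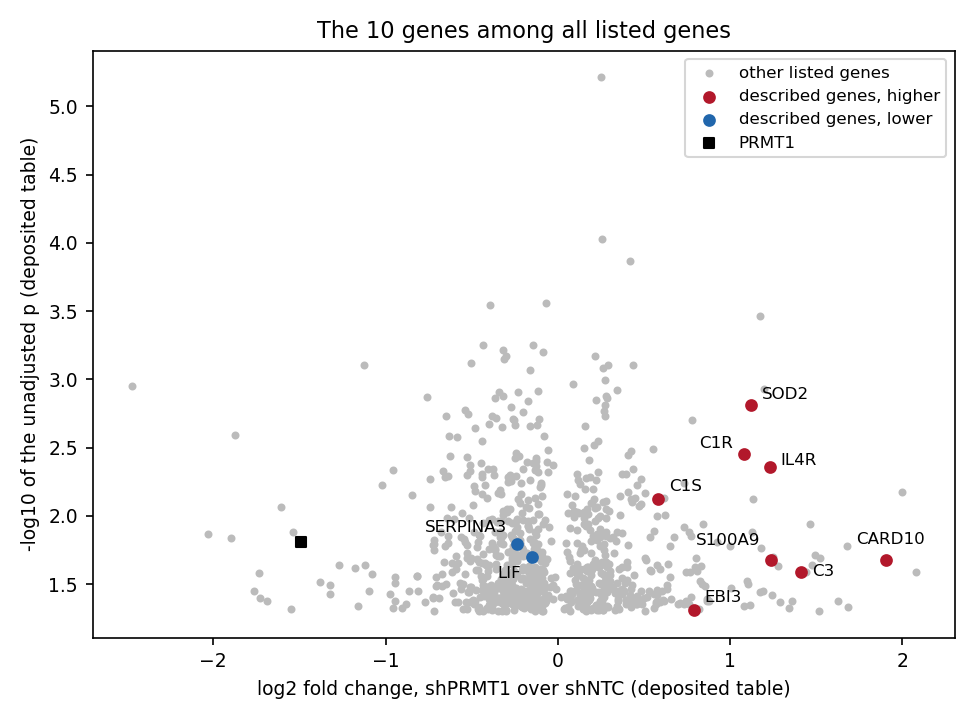
Log2 fold change (x axis, shPRMT1 over shNTC) against −log10 of the unadjusted p (y axis) for the 858 genes of the authors' deposited table in grey, the 10 genes in red (higher) or blue (lower), and PRMT1 as a black square. SOD2 lies highest among the red and blue points, CARD10 lies farthest right at 1.91, and EBI3 sits at the lower edge.

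Size and p ranked the genes differently. The authors' deposited table gave p under 0.01 for 4 of the 10, SOD2, C1R, IL4R and C1S. That limit was met by 191 of the 858 listed genes (22.3%), or 2.5% of the genes tested, and nothing is read from the count. CARD10, C3 and S100A9, whose listed ratios were the largest 3 of the set, had p between 0.0209 and 0.0257 in the authors' deposited table. The listed higher genes of the set had longest annotated transcripts from 577 nt (S100A9) to 14266 nt (SOD2), with a median of 3593 nt, against 4436 nt for all genes listed higher and 2823 nt for all listed lower. The part of transcript length in these values was not tested.

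Over all pathway lists, the authors' deposited table held 3 of 253 genes (1.19%) beside the 10, and all 3 (C1QBP, PRDX2 and TBK1) were lower. Entries under an older symbol were not looked up by their gene identifiers. The background was 11.2% of the genes tested, but how many of the 253 were tested is unknown. These shares thus have different denominators and no difference is read from them. The median log2 fold change of those 3 genes was −0.20 in the authors' deposited table, against −0.12 over all listed genes.

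**Figure D4:**
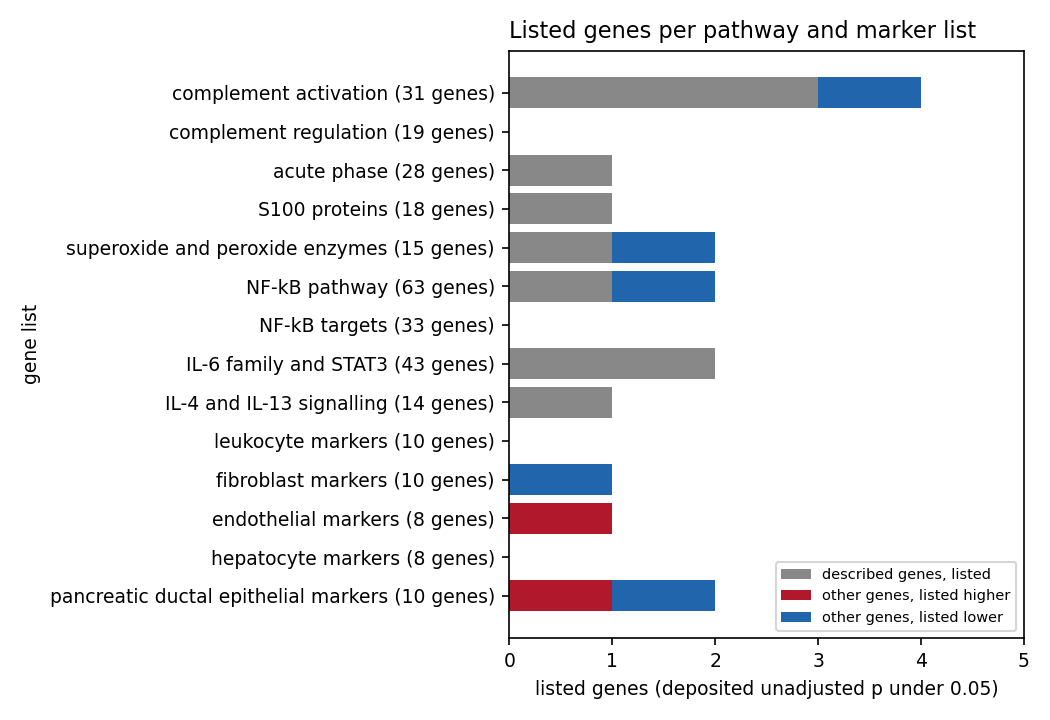
Number of listed genes (x axis, unadjusted p under 0.05 in the authors' deposited table) in each pathway or marker list (y axis, with its size), grey for the 10 genes described, red for other genes listed higher and blue for other genes listed lower. Matched by current symbol, the pathway lists held 3 listed genes outside the 10 genes, all lower, and the marker lists held 4.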

How the data were processed

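RNA of 2 shPRMT1 and 2 shNTC samples was compared by the authors, who deposited 1 table. The submitters' processing notes name the build hg19 and, in roles not given in the sources used here, edgeR 3.36.0, StringTie 2.2.1, deepTools, HISAT2 2.2.1 and Trim Galore 0.6.7. Per the file headers, the deposited values of each gene are a fold change (a linear ratio), the log2 of it, a p-value and a q-value (here called adjusted p); the test, normalization and filter behind them are not stated. Depth per sample is unknown, and no test of samples or interval could be computed.

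How many genes were tested follows from p, its rank and adjusted p under the Benjamini-Hochberg formula: of 53 sets of tied adjusted p, 52 gave 7640 (tolerance 0.01). This step, tested on simulated data for the comparison of shPRMT1 and shNTC, recovered the number in 50 of 50 tables. Genes were matched by symbol, and all 306 list genes had a current symbol. The deposited table holds older symbols such as CD97, so a list gene entered under one would be missed. The gene identifiers that the table also holds were not used for this match. Statements that a list gene is not listed, and the counts of listed genes, carry this limit. Named genes are the 10 genes, PRMT1, every listed gene of the pathway and marker lists, and the gene next to the set in p. The genes and lists were chosen with earlier results of these data known. GPR108 and the genes of the closing section were named after their values were seen. Overlaps and transcript lengths came from GENCODE 29 and promoter windows from RefSeq (GRCh38.p14), another build than the authors', so no coordinates were carried over. Alternatives were stricter thresholds, a shift of log2 values by 0.1 and a shorter promoter window. Calculations used Python 3.11.15, numpy 2.4.6, pandas 2.3.3, scipy 1.17.1 and matplotlib 3.10.9.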

Additional observations from a re-analysis of the deposited data

How the results depend on the processing

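No paired analysis was possible because the deposited table holds no values of single samples, and for the same reason no replicate could be left out. Of the 10 genes, the authors' deposited table gave 10 at p under 0.05, 4 at p under 0.01, 6 at p under 0.05 with a log2 fold change of 1 or more in either direction, and 0 at an adjusted p under 0.05. Of the other pathway genes, the authors' deposited table gave 3 at p under 0.05, 2 at p under 0.01, 0 at an adjusted p under 0.05 and 0 with the size minimum. The table holds only genes at p under 0.05, which sets the first count of each. With every log2 value shifted by 0.1 in either direction, 8 of the 10 genes stayed higher. For the 10 genes this was fixed beforehand, as their smallest change was −0.15, for LIF. Among the 13 genes shifted, 1, C1QBP, changed sign, to 0.0075. The NF-kB consensus was found in 1 of 11 windows with or without the 50 bases after the start.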

Other observations

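Further genes linked to complement or cytokine signalling were noticed in the table after their values were seen, and they are given as values. CPAMD8, a member of the protein family of C3 and alpha-2-macroglobulin, was listed in the authors' deposited table with a log2 ratio of 1.18 (p = 0.000345, adjusted p = 0.308), rank 6 of 858 by p. CD97, an adhesion receptor that binds the complement regulator CD55, was listed at 0.42 (p = 0.00337), and CD47, a surface signal against phagocytosis, at 0.40 (p = 0.0236) in the authors' deposited table. The entry RTEL1-TNFRSF6B, a readthrough locus that includes the decoy receptor TNFRSF6B, stood at 0.64 (p = 0.0224) in the authors' deposited table, and reads of its overlapping genes may be shared. IFNGR2, a chain of the interferon gamma receptor, was listed lower in the authors' deposited table, at −0.38 (p = 0.00186, adjusted p = 0.308). None of these 5 genes had an adjusted p under 0.05.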
